A study of Eucalyptus urophylla with 24 samples.

Results

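The Golden2-like (GLK) genes of *Eucalyptus* that the annotation describes as the myb family transcription factor EFM were followed through leaf development in triploid and diploid *Eucalyptus urophylla*. The 4 genes are *EgrGLK14*, *EgrGLK27*, *EgrGLK29* and *EgrGLK35*, taken by their identifiers and not by their levels, 4 of the 36 *EgrGLK* genes and 4 of the 26033 genes in the expression table. RNA was sequenced at 4 stages, from terminal buds over young leaves (juvenile in the labels) and mature, fully expanded ones to leaves in senescence. Each of the 8 groups, a stage of the triploid or of the diploid, had 3 libraries, 24 in all. Per the study's methods, the triploid trees came from sexual polyploidization, the diploid was their control, several clones were chosen for the chlorophyll measurement and the tissue for RNA was taken from clones of both. The library titles carry 1 code for all triploid libraries and 1 for all diploid ones. How many of the clones were sequenced, and if a group's 3 libraries are different trees, is not given in the sources used here, so a p-value here covers library-to-library spread, and ploidy and the remaining differences of the sampled plants cannot be told apart.

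EFM (EARLY FLOWERING MYB) was described in *Arabidopsis*, where it delays flowering. It acts in leaf veins, where it represses FT, the mobile signal that starts flowering at the shoot tip, together with the histone demethylase JMJ30, and its gene is switched on by the MADS-box repressor SVP. EFM belongs to the GARP family of DNA-binding proteins, as do the GLK regulators of chloroplast development, and its closest relatives in *Arabidopsis* (the HRS1 and HHO proteins) are known for roles in phosphate and nitrate responses.

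In the *E. grandis* annotation that the table uses, *EgrGLK14* (Eucgr.C04155) lies on chromosome 3, 78649962 to 78652848, on the plus strand. *EgrGLK27* (Eucgr.G01503) and *EgrGLK29* (Eucgr.G02343) both lie on the minus strand of chromosome 7, at 24195911 to 24199198 and at 44100593 to 44103437. *EgrGLK35* (Eucgr.J00182) lies on the plus strand of chromosome 10, 1909756 to 1911619. None of the 4 overlaps another gene of the table. The ontology terms of 2 of them go with the name of a flowering repressor, though name and terms are both annotations and neither measures function. *EgrGLK14* and *EgrGLK27* carry the term for negative regulation of flowering under long days, which 9 of 21236 annotated genes carry. *EgrGLK29* carries terms for phosphate homeostasis and the response to abscisic acid in its place, and *EgrGLK35* carries neither kind. In the published protein sequences, a short block that precedes the DNA-binding domain of *EgrGLK14*, *EgrGLK27* and *EgrGLK29* was not found in *EgrGLK35*. The search took exact matches only, without an alignment, so a diverged form of the block would be missed. The 4 are therefore called EFM-annotated genes here, with no claim on what they do. A further gene, *EgrGLK34* (Eucgr.I01178, chromosome 9, 22723451 to 22725940, minus strand), has EFM as 1 of its 3 descriptions, carries the flowering term and has the block. It is not among the 4 genes and is given beside them for comparison.

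The libraries with read counts held 38395755 to 64400745 counts (median 56603217, 22 libraries). In 3 diploid libraries the SD of the log2 deviation from the group mean was high, at 0.343 (terminal bud library 3), 0.274 (young leaf library 1) and 0.249 (young leaf library 3), against 0.119 to 0.227 in the other libraries. The stage labels were set against marker lists. By summed FPKM, photosynthesis genes were highest in mature leaves and senescence genes in senescent leaves of both ploidies. Of 27 photosynthesis genes 19 were higher and 3 lower in mature than in young triploid leaves, and 20 and 3 in diploid ones. At that step 26.9% and 21% of all genes were higher. Of 14 senescence genes 7 were higher and 5 lower in senescent than in mature triploid leaves, and 6 and 3 in diploid ones. At this step 29% and 25.3% of all genes were higher. Dividing-cell and meristem genes, however, were as high in young leaves (176.6 to 184.3 summed FPKM in the triploid and 154.0 to 157.8 in the diploid) as in terminal buds (165.1 to 175.4 and 136.5 to 174.3), so these genes do not set the 2 youngest stages apart. Most of the summed meristem level came from 1 gene, Eucgr.F01814, described as cyclin-dependent kinase B2-2. It had 145.9 of 171.1 FPKM on average in triploid terminal buds and 153.4 of 180.5 FPKM in triploid young leaves. In the diploid it had 119.6 of 149.1 and 130.0 of 155.5 FPKM. The lists, the tests and the scaling are described with the methods. All differences are on log2(FPKM + 1), which understates the change of genes under about 1 FPKM, and adjusted p-values are those of limma over 19174 genes unless another tool is named. The typical gene was shifted slightly between the ploidies, which median-ratio scaling takes out. The median difference, triploid minus diploid, over 11530 genes with at least 1 FPKM in every library was -0.195 for terminal buds, -0.003 for young leaves, 0.254 at maturity and 0.216 at senescence.

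The 4 genes did not follow a common course. *EgrGLK27* was highest in young or mature leaves and lowest in senescent leaves. *EgrGLK29* was highest in senescent leaves, *EgrGLK35* was near 0 in terminal buds and came on in mature leaves, and *EgrGLK14* was the least abundant of the 4 outside terminal buds and young leaves. The largest ploidy differences of terminal buds, mature leaves and senescent leaves fell on different genes: *EgrGLK14* in terminal buds, where the triploid mean was 3.27 times the diploid one, *EgrGLK35* in mature leaves (0.392 times) and *EgrGLK29* in senescent leaves (0.399 times). In a bulk sample, fewer cells that use a gene and less RNA per cell cannot be told apart.

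**Figure D1:**
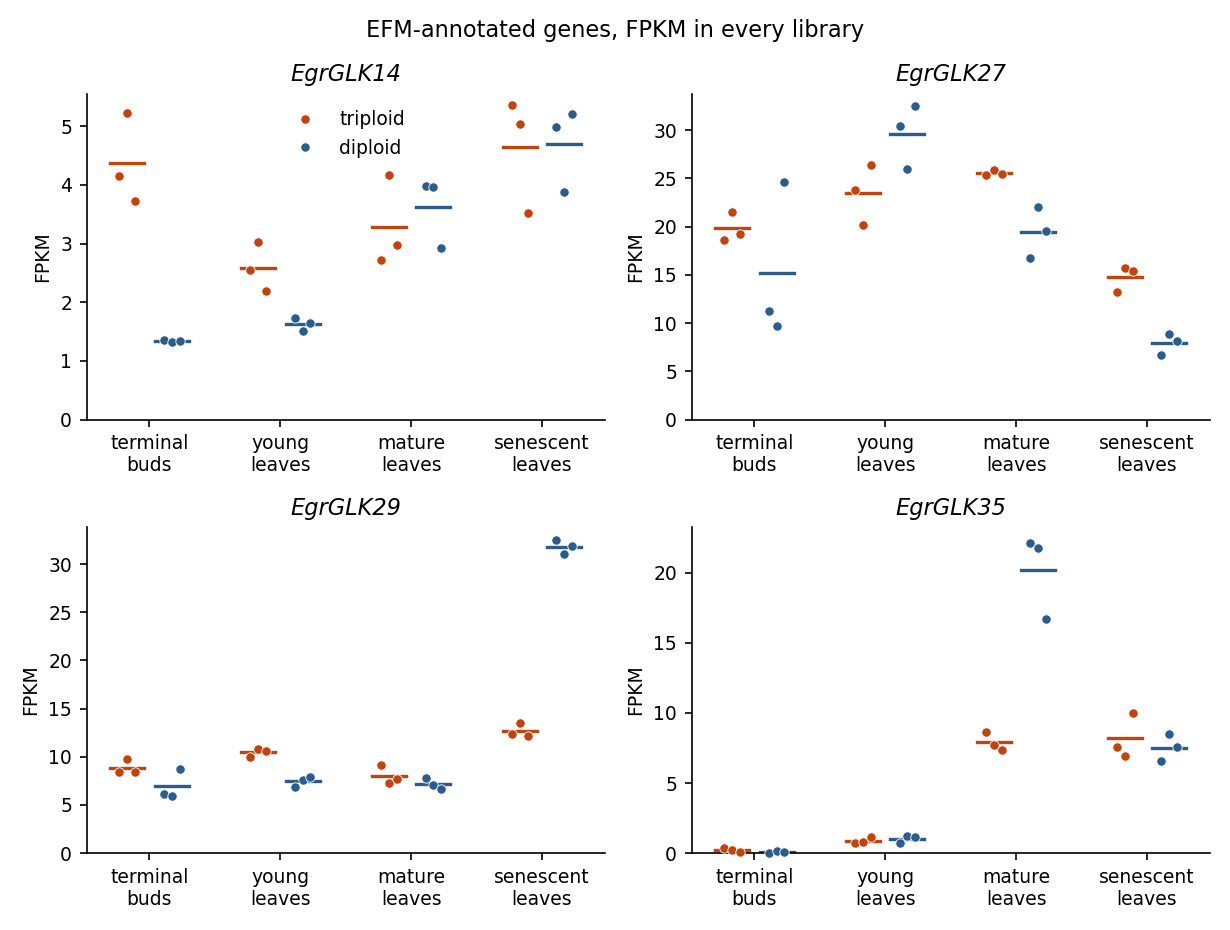
FPKM of the 4 EFM-annotated genes (vertical axis, linear and starting at 0, a separate range for each gene) in triploid (red, left) and diploid (blue, right) libraries at 4 stages. Points are single libraries (3 per group) and bars are group means. *EgrGLK35* has its highest points in diploid mature leaves (16.7 to 22.2 FPKM) and *EgrGLK29* in diploid senescent leaves (31.1 to 32.5 FPKM).

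*EgrGLK14*, which carries the flowering term, differed most between the ploidies in terminal buds. It had 4.15, 5.22 and 3.73 FPKM in triploid terminal buds, against 1.35, 1.32 and 1.33 FPKM in diploid ones. Every triploid library lay above every diploid one, and the gene was higher in the triploid by a log2 of 1.19 (SE 0.15, adjusted p = 2.1e-06). With edgeR on the counts the difference was 1.87. In young leaves it had 2.55, 3.03 and 2.19 FPKM in the triploid, against 1.73, 1.51 and 1.65 FPKM in the diploid, again without overlap. That difference of 0.44 (SE 0.15, adjusted p = 0.043) lay close to the threshold. It was 0.41 (adjusted p = 0.056) after scaling and 0.51 (adjusted p = 0.13) without the 3 high-deviation diploid libraries, where a single diploid young leaf library remains and is assumed to vary like the others. Over 14 alternatives its adjusted p lay between 0.021 and 0.17, and 5 of 6 omissions of 1 library, each except triploid library 3, ended the call (0.36 to 0.47).

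In mature leaves *EgrGLK14* had 2.72, 4.17 and 2.97 FPKM in the triploid, against 3.98, 3.97 and 2.93 FPKM in the diploid, and the libraries overlapped. In senescent leaves it had 5.36, 5.04 and 3.52 FPKM in the triploid, against 4.99, 3.88 and 5.21 FPKM in the diploid, also with overlap. The differences were -0.12 (95% interval -0.44 to 0.21) and -0.02 (-0.34 to 0.30), and neither passed the test. The difference in mature leaves was -0.40 after scaling (adjusted p = 0.027, within 0.017 to 0.93 over 14 alternatives). Over the stages *EgrGLK14* fell by 0.58 in young leaves of the triploid relative to its terminal buds (SE 0.15, adjusted p = 0.0024), while the diploid had a difference of 0.17 at that step (adjusted p = 0.35). In mature leaves relative to young ones it rose by 0.81 in the diploid (adjusted p = 7.3e-05), with a difference of 0.25 in the triploid (adjusted p = 0.16). Both steps differed between the ploidies, by -0.75 (SE 0.22, adjusted p = 0.015) and -0.56 (SE 0.22, adjusted p = 0.038), triploid change minus diploid change. Without the 3 high-deviation libraries these were -0.68 (adjusted p = 0.091) and -0.62 (adjusted p = 0.070), and over 20 alternatives each the adjusted p ran up to 0.091 and 0.10.

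Phloem genes were also higher in the triploid at the stages where *EgrGLK14* was. The *EgrGLK* gene whose course was most like it over the 24 libraries was *EgrGLK26* (Eucgr.F04475, Pearson r = 0.859), annotated as APL, which in *Arabidopsis* gives phloem cells their identity. *EgrGLK26* had 29.4 ± 4.70 FPKM in triploid terminal buds and 6.17 ± 2.68 FPKM in diploid ones (SD, n = 3). In triploid terminal buds 14% of all genes tested were higher and 34.9% lower, and in young leaves 11.4% and 11.9%. Of 19 phloem genes tested (sieve element occlusion proteins, phloem proteins and *EgrGLK26* itself), 13 were higher and 2 lower in terminal buds. In young leaves 11 were higher and 1 lower. Their medians were 0.995 and 0.67, beside -0.18 and 0.01 over all genes tested. Their summed level was 607.8 to 666.3 FPKM in triploid terminal buds and 236.3 to 332.3 FPKM in diploid ones, and 217.7 to 247.0 and 129.7 to 148.5 FPKM in young leaves. Of 25 phloem genes found by description, 4 phloem protein genes were at 0 in every library, and no sieve element occlusion gene was. In mature leaves, where *EgrGLK14* was not called, 42.4% of all genes tested were higher and 22.6% lower in the triploid. Of the phloem genes 6 were higher and 4 lower, which does not stand out from those shares. The summed level of the phloem genes was lower in the triploid, at 485.7 to 492.0 FPKM, beside 1160.3 to 1674.1 FPKM in the diploid. Most of this sum came from 1 gene, Eucgr.J02719, described as PHLOEM PROTEIN 2-LIKE A1. It had 399.2 of 488.0 FPKM on average in the triploid and 1259.6 of 1348.7 FPKM in the diploid. Over the stages the phloem genes went with *EgrGLK14* at some steps and not at others. In triploid young leaves relative to terminal buds, where *EgrGLK14* fell, 4 of the 19 were higher and 13 lower. Their median was -0.72, beside 0.235 over all genes tested, of which 23.8% were lower. In diploid mature leaves relative to young ones, where *EgrGLK14* rose, 5 were higher and 11 lower (55.6% of all genes lower). The median of -0.56 lay beside -0.47 over all genes. In triploid senescent leaves relative to mature ones, where *EgrGLK14* rose, 3 phloem genes were higher and 11 lower (32.1% of all genes lower). Their median was -0.41, beside -0.05 over all genes. Their part in the level of *EgrGLK14* was not tested.

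The genes closest to *EgrGLK14* of all 19173 others were Eucgr.H00377 (a protein of unknown function, r = 0.907), Eucgr.F03827 (r = 0.905), annotated as amino acid permease 3, and Eucgr.H04405 (r = 0.887), a hypothetical protein. All 3 shared its high level in triploid terminal buds. Eucgr.F03827, whose annotation names a membrane transporter of amino acids, had 11.8 ± 3.50 FPKM in triploid terminal buds and 0.659 ± 0.461 FPKM in diploid ones. These correlations, like the others below, are descriptions over 24 libraries that share stages and ploidies.

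*EgrGLK27*, the other gene with the flowering term, was on average the most abundant of the 4 in 6 of the 8 groups, and in 7 without diploid mature leaf library 1. It had 18.6, 21.6 and 19.3 FPKM in triploid terminal buds, against 11.3, 9.73 and 24.6 FPKM in diploid ones. Diploid library 3, one of the high-deviation libraries, lay above every triploid library and the other two diploid ones lay below. The difference of 0.47 (SE 0.21) had an adjusted p of 0.064. Without the 3 high-deviation libraries it was 0.86 (adjusted p = 2.6e-05), and with edgeR on all counts 0.58 (adjusted p = 0.042). After scaling it was 0.66 (adjusted p = 0.005). Of 14 alternatives 8 left it uncalled, and the adjusted p lay between 2.4e-05 and 0.37.

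In young leaves *EgrGLK27* had 23.8, 20.2 and 26.4 FPKM in the triploid, against 30.5, 25.9 and 32.5 FPKM in the diploid. In mature leaves it had 25.3, 25.9 and 25.5 FPKM in the triploid, against 16.7, 22.04 and 19.5 FPKM in the diploid. The libraries overlapped in young leaves and not in mature leaves, yet neither difference passed the test, at -0.33 (95% interval -0.75 to 0.10) and 0.39 (-0.04 to 0.81). The second was 0.05 after scaling, 0.08 with edgeR, -0.01 with DESeq2 and 0.39 with limma without the high-deviation libraries. Only the last of these fits called it. That fit drops no mature leaf library but leaves a single diploid young leaf library. In the main fit the SE of both differences, 0.21, pools the spread of all groups, including diploid terminal buds (SD 8.18 FPKM). In mature leaves the SD was 0.28 FPKM in the triploid and 2.65 FPKM in the diploid. The missing call in mature leaves therefore does not reflect the spread of mature leaves alone. In senescent leaves the gene had 13.2, 15.8 and 15.5 FPKM in the triploid, against 6.75, 8.86 and 8.17 FPKM in the diploid, without overlap, and was higher in the triploid by 0.83 (SE 0.21, adjusted p = 0.0015). With edgeR, for which a single diploid senescent library has counts, it was 0.42 (adjusted p = 0.30, within 4.2e-06 to 0.30 over 14 alternatives).

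The fall of *EgrGLK27* in senescent leaves was shared by the ploidies. Relative to mature leaves it fell by 0.75 in the triploid (SE 0.21, adjusted p = 0.0032) and by 1.19 in the diploid (SE 0.21, adjusted p = 3.2e-05), and the difference of the 2 changes was 0.44 (95% interval -0.16 to 1.05, adjusted p = 0.29). The diploid rose by 1.02 in young leaves relative to terminal buds (adjusted p = 0.00023), against 0.23 in the triploid (adjusted p = 0.34), and fell by 0.59 in mature leaves relative to young ones (adjusted p = 0.013), against a difference of 0.13 in the triploid (adjusted p = 0.60). After scaling that step was -0.09 (adjusted p = 0.66), and over 14 alternatives its adjusted p lay between 0.0097 and 0.89. The *EgrGLK* gene most like *EgrGLK27* was *EgrGLK37* (r = 0.803), annotated as the transcription activator GLK2, a regulator of chloroplast development. *EgrGLK37* had 21.1, 56.4, 49.1 and 10.4 FPKM at the 4 stages of the triploid and 32.8, 43.7, 33.1 and 8.40 FPKM at those of the diploid. The closest of all genes were a receptor-like protein kinase (Eucgr.J01755, r = 0.879), a serine/threonine protein kinase (Eucgr.K02666, r = 0.870) and Eucgr.C00552 (r = 0.863), annotated as the ultraviolet-B receptor UVR8.

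*EgrGLK29*, the gene with the phosphate and abscisic acid terms, stayed within a narrow range until senescence. It had 8.43, 9.76 and 8.45 FPKM in triploid terminal buds, against 6.13, 5.96 and 8.71 FPKM in diploid ones. In young leaves it had 10.0, 10.8 and 10.6 FPKM in the triploid, against 6.88, 7.55 and 7.93 FPKM in the diploid. The first pair of groups overlapped through diploid library 3 and the second did not. The gene was higher in the triploid by 0.33 in terminal buds (SE 0.11, adjusted p = 0.021) and by 0.44 in young leaves (SE 0.11, adjusted p = 0.0077). The terminal bud call was lost without triploid library 2 (0.27), diploid library 1 (0.26) or diploid library 2 (0.24), and was 0.49 without diploid library 3.

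In mature leaves *EgrGLK29* had 9.12, 7.25 and 7.69 FPKM in the triploid, against 7.84, 7.06 and 6.63 FPKM in the diploid, with overlap and a difference of 0.14 (95% interval -0.10 to 0.38). That difference was -0.18 after scaling. In senescent leaves it had 12.4, 13.5 and 12.2 FPKM in the triploid, against 32.5, 31.1 and 31.9 FPKM in the diploid. The groups lay far apart, with the highest triploid library below the lowest diploid one, and the gene was lower in the triploid by 1.26 (SE 0.11, adjusted p = 5.5e-09). The difference was -1.58 after scaling and -1.77 with edgeR, with counts of 1 diploid library.

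The same contrast stood in the change from maturity to senescence. *EgrGLK29* rose by 0.61 in senescent leaves of the triploid relative to mature ones (SE 0.11, adjusted p = 8.6e-05) and by 2.01 in those of the diploid (SE 0.11, adjusted p = 1e-12), and the triploid change was smaller by 1.40 (difference -1.40, SE 0.16, adjusted p = 1.2e-06). Earlier steps were small. The triploid fell by 0.35 in mature leaves relative to young ones (adjusted p = 0.0099), which was -0.19 after scaling (adjusted p = 0.091, range 0.0012 to 0.19 over 14 alternatives). The diploid had a difference of -0.05 there, which turned to 0.41 after scaling (adjusted p = 0.0011) and to 0.43 with edgeR.

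The senescence protease gene SAG12 (Eucgr.D00494) was lower in triploid senescent leaves, with 5197.0 to 5480.0 FPKM in the triploid and 27041.6 to 30687.9 FPKM in the diploid (limma, adjusted p = 0.00024). It carried the summed level of the 22 senescence genes, which was 8380.2 to 8742.7 FPKM in triploid senescent leaves and 30407.9 to 34000.1 FPKM in diploid ones. The other 21 genes summed to 3156.8 to 3262.7 FPKM in the triploid and 3302.4 to 3366.3 FPKM in the diploid. Of 14 senescence genes tested 4 were higher and 6 lower in the triploid (median difference 0.03). Over all genes tested 40.1% were higher and 20% lower (median 0.17). In senescent leaves 3 of the 22 were at 0 in the triploid group and 4 in the diploid one. Of 27 photosynthesis genes 24 were lower in triploid senescent leaves and none was higher (median -0.73), beside the same 20% and 40.1% of all genes. Their summed level was 5757.7 to 6459.9 FPKM in the triploid and 10358.7 to 11103.5 FPKM in the diploid. Their part in the level of *EgrGLK29* was not tested. The genes most like *EgrGLK29* were Eucgr.B01226 (r = 0.934, a hypothetical protein), Eucgr.G00058 (r = 0.934, annotated as isoflavone 3'-hydroxylase, an enzyme of the cytochrome P450 family) and Eucgr.A01923 (r = 0.929, annotated as phospholipase A1-IIdelta, a lipid-cleaving enzyme). Eucgr.G00058 had 0.725 ± 0.378 FPKM in triploid senescent leaves and 6.92 ± 1.38 FPKM in diploid ones. At the earlier stages Eucgr.G00058 and Eucgr.B01226 averaged at most 0.154 and 0.114 FPKM, so their r rests largely on senescent leaves. No *EgrGLK* gene came close, the nearest being *EgrGLK7* (r = 0.647), annotated as PCL1, a part of the circadian clock.

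*EgrGLK35*, which carries none of these ontology terms, changed most over the stages. Its highest stage mean was 39.7 times its lowest in the triploid and 270.2 times in the diploid, where *EgrGLK14*, *EgrGLK27* and *EgrGLK29* ranged over 1.58 to 1.79 times in the triploid and 3.52 to 4.59 times in the diploid. The lowest mean rests on few reads. *EgrGLK35* had 0.359, 0.208 and 0.052 FPKM in triploid terminal buds (28, 16 and 4 reads), against 0, 0.127 and 0.097 FPKM in diploid ones (0, 11 and 10 reads, the first of which allows up to 3 reads). The groups overlapped, and the difference of 0.16 did not pass the test (adjusted p = 0.40). DESeq2 on the counts called it, at 1.64 (adjusted p = 0.0038), and edgeR did not, at 1.56 (adjusted p = 0.056), with a range of 0.0038 to 0.77 over 14 alternatives.

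In young leaves *EgrGLK35* had 0.698, 0.818 and 1.17 FPKM in the triploid, against 0.712, 1.22 and 1.12 FPKM in the diploid, with overlap. In mature leaves it had 8.65, 7.74 and 7.35 FPKM in the triploid, against 22.2, 21.8 and 16.7 FPKM in the diploid. Every triploid mature leaf library lay below every diploid one. In senescent leaves it had 7.59, 6.96 and 10.0 FPKM in the triploid, against 6.55, 8.49 and 7.54 FPKM in the diploid, with overlap. The ploidies thus differed at maturity, by -1.24 (SE 0.15, adjusted p = 4.1e-07), with differences of -0.09 (95% interval -0.40 to 0.23) in young leaves and 0.10 (-0.21 to 0.41) in senescent leaves.

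The rise of *EgrGLK35* at maturity was present in both ploidies and smaller in the triploid. In mature leaves relative to young ones it was 2.24 in the triploid (SE 0.15, adjusted p = 1.2e-11) and 3.39 in the diploid (SE 0.15, adjusted p = 7e-15), a difference of -1.15 (SE 0.21, adjusted p = 0.00018). At senescence the gene fell by 1.31 in the diploid (SE 0.15, adjusted p = 1.2e-07), while the triploid had a difference of 0.03 (95% interval -0.28 to 0.35), and the 2 changes differed by 1.34 (SE 0.21, adjusted p = 6.2e-05). With edgeR and its single diploid senescent library, the last difference was 1.35 (adjusted p = 0.18, within 2.9e-05 to 0.18 over 20 alternatives).

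**Figure D2:**
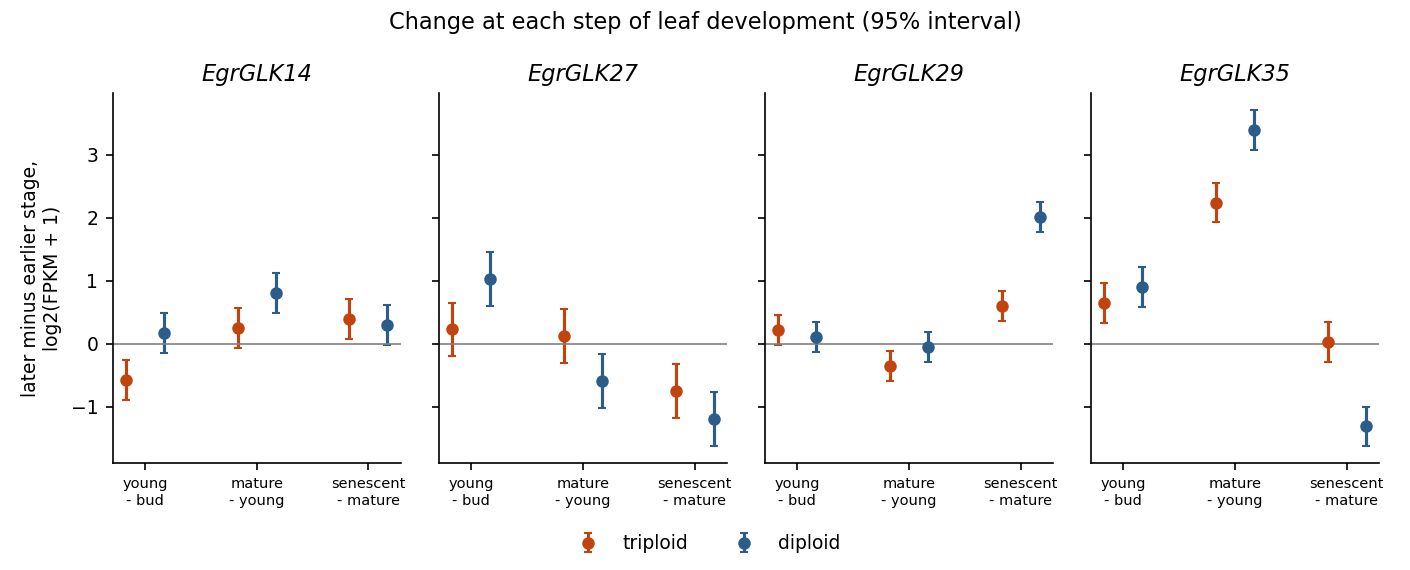
Change of each EFM-annotated gene at the 3 steps of leaf development, later minus earlier stage on log2(FPKM + 1), in the triploid (red, left) and the diploid (blue, right). Points are limma estimates and bars are 95% intervals. The intervals of the ploidies lie apart for *EgrGLK14* in young leaves (-0.58 in the triploid and 0.17 in the diploid), for *EgrGLK29* at senescence (0.61 in the triploid and 2.01 in the diploid) and for *EgrGLK35* at maturity (2.24 and 3.39) and senescence (0.03 and -1.31).

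*EgrGLK35* had the closest matches of the 4. The closest of all was *EgrGLK40* (Eucgr.K02966, r = 0.987), whose description gives no function, followed by Eucgr.D01960 (r = 0.987), annotated as SLAC1, the anion channel that closes stomata in guard cells, and Eucgr.B02515 (r = 0.986), annotated as the ion channel CNGC15b. SLAC1 had 0.167, 2.45, 13.3 and 13.03 FPKM at the 4 stages of the triploid and 0.197, 1.66, 38.6 and 13.7 FPKM at those of the diploid. In mature leaves the triploid mean of *EgrGLK40* was 12.1 ± 0.860 FPKM and the diploid mean 34.7 ± 2.38 FPKM. Among themselves the 4 genes were less alike. Of the 6 pairs, *EgrGLK14* went with *EgrGLK29* (r = 0.548) and with *EgrGLK35* (r = 0.537), *EgrGLK27* and *EgrGLK29* ran opposite (r = -0.663), and the other pairs lay between -0.359 and 0.286.

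Set side by side at each stage, the 4 genes read against a background in which a large share of all genes differed. In terminal buds 2 of the 4, *EgrGLK14* and *EgrGLK29*, were higher in the triploid and none was lower, where 14% of all genes tested were called higher, 34.9% lower and 48.8% either way. In young leaves *EgrGLK14* and *EgrGLK29* were again higher and none was lower, against 11.4% called higher, 11.9% lower and 23.4% either way. In mature leaves *EgrGLK35* alone was called, lower, where 42.4% of genes were higher, 22.6% lower and 64.9% differed either way. In senescent leaves *EgrGLK27* was higher and *EgrGLK29* lower, where 40.1% were higher and 20% lower, 60.1% either way. The number of the 4 genes called does not stand out from these shares.

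**Figure D3:**
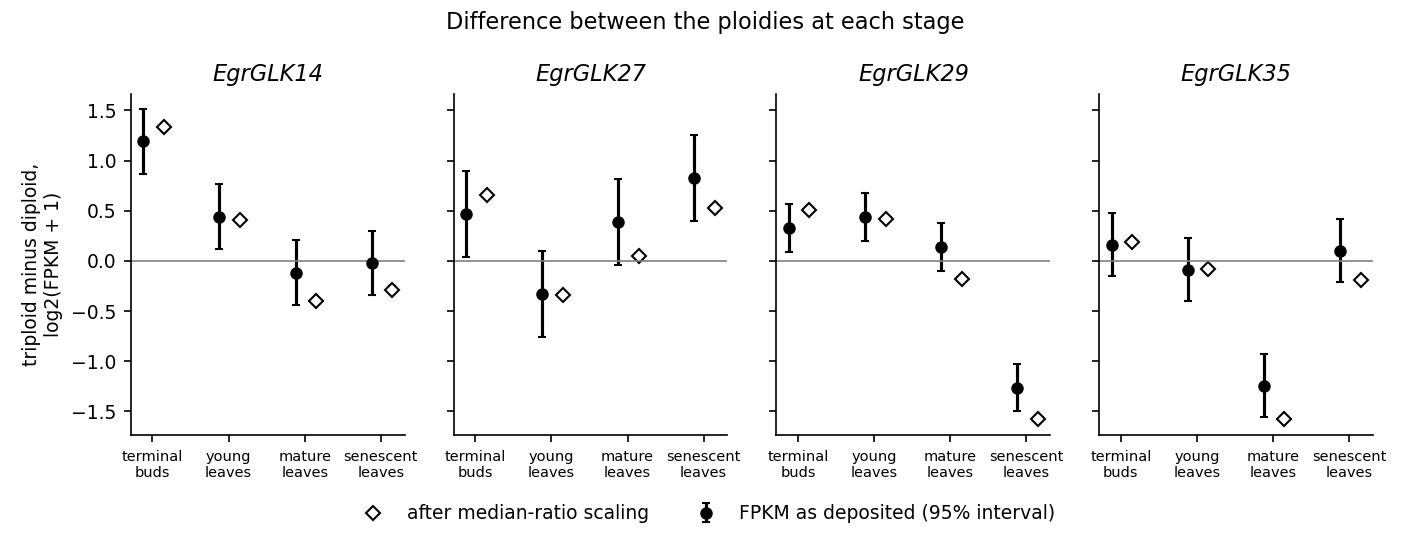
Triploid minus diploid difference of the 4 EFM-annotated genes on log2(FPKM + 1) at the 4 stages. Filled circles are limma estimates from FPKM as deposited with 95% intervals, and open diamonds are estimates after median-ratio scaling. The differences of *EgrGLK14* in terminal buds (1.19), *EgrGLK35* in mature leaves (-1.24) and *EgrGLK29* in senescent leaves (-1.26) keep their sign after scaling, and that of *EgrGLK29* in mature leaves (0.14) turns to -0.18.

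Over the stages of the triploid, *EgrGLK35* rose and *EgrGLK14* fell in young leaves relative to terminal buds (68.8% of all genes tested differed, 45% higher and 23.8% lower), *EgrGLK35* rose and *EgrGLK29* fell in mature leaves relative to young ones (69.7%, 26.9% higher and 42.8% lower), and *EgrGLK14* and *EgrGLK29* rose while *EgrGLK27* fell in senescent leaves relative to mature ones (61.1%, 29% higher and 32.1% lower). The rise of *EgrGLK14* at senescence, 0.39 (adjusted p = 0.032), was not called without triploid mature leaf library 1 (0.30) or 3 (0.35) or triploid senescent leaf library 1 (0.30) or 2 (0.34). In the diploid, *EgrGLK27* and *EgrGLK35* rose in young leaves (60.1%, 33.4% higher and 26.6% lower), *EgrGLK14* and *EgrGLK35* rose and *EgrGLK27* fell in mature leaves (76.6%, 21% higher and 55.6% lower), and *EgrGLK29* rose while *EgrGLK27* and *EgrGLK35* fell in senescent leaves (57.7%, 25.3% higher and 32.4% lower). The change from terminal buds to young leaves differed between the ploidies for *EgrGLK14* and *EgrGLK27*, both with a lower triploid change, as 6.57% of all genes had, where 19.4% had a higher one (26% either way). From young to mature leaves it differed for *EgrGLK14* and *EgrGLK35* (lower, as in 16.3% of genes) and *EgrGLK27* (higher, as in 34.9%), with 51.1% either way. The difference of *EgrGLK29* at this step, -0.30 (adjusted p = 0.13), was called after scaling (-0.60, adjusted p = 0.0017), with edgeR (-0.61, adjusted p = 0.0085) and with DESeq2 (-0.71, adjusted p = 0.00019), within 0.00019 to 0.26 over 20 alternatives. That of *EgrGLK27*, 0.71, was called in none of these 3, at 0.38 (adjusted p = 0.23), 0.44 (adjusted p = 0.28) and 0.35 (adjusted p = 0.39). From mature to senescent leaves it differed for *EgrGLK29* (lower, as in 12.1%) and *EgrGLK35* (higher, as in 13.6%), with 25.7% either way. The 2 differences of *EgrGLK27* had adjusted p-values of 0.048 and 0.046 and each was lost in 9 of 12 omissions of 1 library (-1.18 to -0.55 and 0.61 to 0.80 over all 12).

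The makeup of the group changed along the same lines. FPKM are per length, so the levels of the 4 genes can be summed. The mean sum was 33.3, 37.4, 44.8 and 40.3 FPKM at the 4 stages of the triploid and 23.6, 39.7, 50.4 and 52.0 FPKM at those of the diploid. The diploid terminal bud libraries lay apart, at 18.8, 17.1 and 34.75 FPKM, the last being high-deviation library 3. *EgrGLK27* held 59.6 ± 1.36% of it in triploid terminal buds and 62.6 ± 7.33% in diploid ones (SD, n = 3). In mature leaves *EgrGLK35* held 17.7 ± 1.07% in the triploid and 40.0 ± 3.602% in the diploid, where *EgrGLK27* held 57.1 ± 1.68% and 38.6 ± 4.99%. In senescent leaves *EgrGLK29* held 31.5 ± 1.68% in the triploid and 61.3 ± 2.43% in the diploid, and *EgrGLK27* 36.7 ± 2.06% and 15.2 ± 1.84%. *EgrGLK27* thus had the largest mean share at every stage of the triploid, and *EgrGLK29* had it in diploid senescent leaves. In diploid mature leaves the order of *EgrGLK35* and *EgrGLK27* rests on library 1 (43.68% and 33.01%), since *EgrGLK27* held more in library 2 (39.69% for *EgrGLK35* and 40.18% for *EgrGLK27*) and in library 3 (36.49% and 42.62%). *EgrGLK14* held 13.1 ± 1.18% in triploid terminal buds and 6.25 ± 2.10% in diploid ones, and at most 11.6% on average elsewhere.

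**Figure D4:**
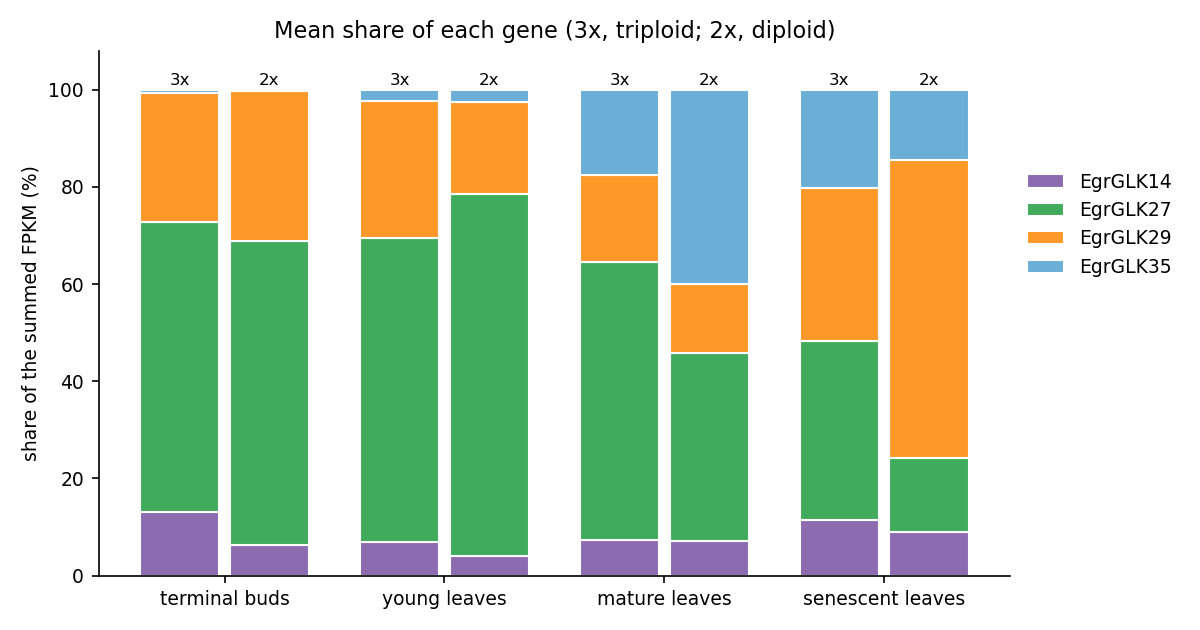
Mean share of each EFM-annotated gene in the summed FPKM of the 4 (vertical axis, percent), with the triploid bar (3x) left of the diploid bar (2x) at each stage, n = 3 libraries each. The share of *EgrGLK29* in senescent leaves is 31.5% in the triploid and 61.3% in the diploid.

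*EgrGLK34*, the further gene with an EFM description, took another course. It had 8.12, 8.62 and 8.34 FPKM in triploid mature leaves, against 5.88, 4.76 and 3.96 FPKM in diploid ones, and 9.95, 9.97 and 12.6 FPKM in triploid senescent leaves, against 2.40, 4.61 and 4.26 FPKM in diploid ones. Neither pair of groups overlapped, and the gene was higher in the triploid by 0.69 (SE 0.16, adjusted p = 0.00081) and 1.34 (SE 0.16, adjusted p = 3.5e-07). In terminal buds and young leaves it did not pass the test, at -0.26 (95% interval -0.60 to 0.07) and 0.13 (-0.20 to 0.47). Of the EFM-annotated genes with the flowering term, *EgrGLK27* and *EgrGLK34* were thus higher in triploid senescent leaves and *EgrGLK14* was not called there.

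The flowering genes that surround EFM in *Arabidopsis* were taken from the descriptions, 89 in the table of which 85 were tested. The only one described as FT or HEADING DATE 3A, the FT of rice, was Eucgr.B01458. It had 28.5, 30.5 and 28.2 FPKM in triploid mature leaves, against 113.1, 114.3 and 122.4 FPKM in diploid ones. It had 4.44, 5.77 and 4.70 FPKM in triploid senescent leaves, against 12.6, 14.9 and 19.1 FPKM in diploid ones. Neither pair overlapped, and it was lower in the triploid by 1.97 (SE 0.15, adjusted p = 4.8e-10) and by 1.46 (SE 0.15, adjusted p = 2.8e-08). In terminal buds and young leaves it was listed at 0 in all triploid libraries and in 4 of 6 diploid ones. Over the 24 libraries its level went with that of *EgrGLK35* (r = 0.940) more than with *EgrGLK14* (r = 0.466), *EgrGLK29* (r = 0.171) or *EgrGLK27* (r = -0.168).

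Of genes described as SVP and as JOINTLESS, its relative in tomato, 2 each were tested. The most abundant, Eucgr.F00420, had 68.1, 71.6 and 68.9 FPKM in triploid terminal buds, against 83.1, 87.0 and 115.7 FPKM in diploid ones, and was lower in the triploid by 0.43 (adjusted p = 0.00064). In senescent leaves it had 24.1, 22.5 and 21.8 FPKM in the triploid, against 34.7, 34.7 and 30.6 FPKM in the diploid, and was lower by 0.53 (adjusted p = 4.8e-05). The groups overlapped at neither stage. Eucgr.F02146 and Eucgr.F02141 were also lower in triploid terminal buds (by 1.53 and 1.12), and Eucgr.F02141 in mature leaves (by 0.52). Eucgr.I00556, described as JOINTLESS, was the exception, with 11.4 ± 1.48 FPKM in triploid terminal buds and 6.28 ± 0.385 FPKM in diploid ones (difference 0.76, adjusted p = 0.00019). It was also higher in triploid young leaves (by 0.49, adjusted p = 0.017) and senescent leaves (by 0.56, adjusted p = 0.002). The latter was 0.335 after scaling (adjusted p = 0.053). In mature leaves it was not called (-0.13, adjusted p = 0.44). JMJ30, the partner of EFM (Eucgr.J00814), was low throughout, at 0.388 to 2.37 FPKM on average. It differed in mature leaves, with 0.429, 0.219 and 0.516 FPKM in the triploid, against 1.004, 0.522 and 0.970 FPKM in the diploid (difference -0.40, SE 0.15, adjusted p = 0.026).

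SOC1 genes, which act after FT to start flowering, were mostly lower in the triploid. Eucgr.A02846 had 1.65, 1.68 and 2.07 FPKM in triploid terminal buds, against 8.62, 8.51 and 10.4 FPKM in diploid ones, and was lower at every stage, by 1.86 in terminal buds (SE 0.12, adjusted p = 1e-10), 1.56 in young leaves and 1.47 in mature leaves. In senescent leaves it was listed at 0 in the triploid, against 0.418 FPKM in the diploid. Eucgr.E00516 was lower in the triploid by 1.28 in terminal buds, 0.51 in young leaves and 0.22 in mature leaves, and its difference of 0.29 in senescent leaves turned to -0.03 after scaling. Eucgr.K00207 and Eucgr.K00208, described as SOC1-like, had at most 0.069 and 0.455 FPKM on average at any stage of the triploid, against 20.1 to 30.1 and 10.6 to 19.1 FPKM in the diploid. These genes are neighbours in identifier of those described as AGL42. Their sequences were not compared, so reads shared between them were not assessed and their values are uncertain.

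**Figure D5:**
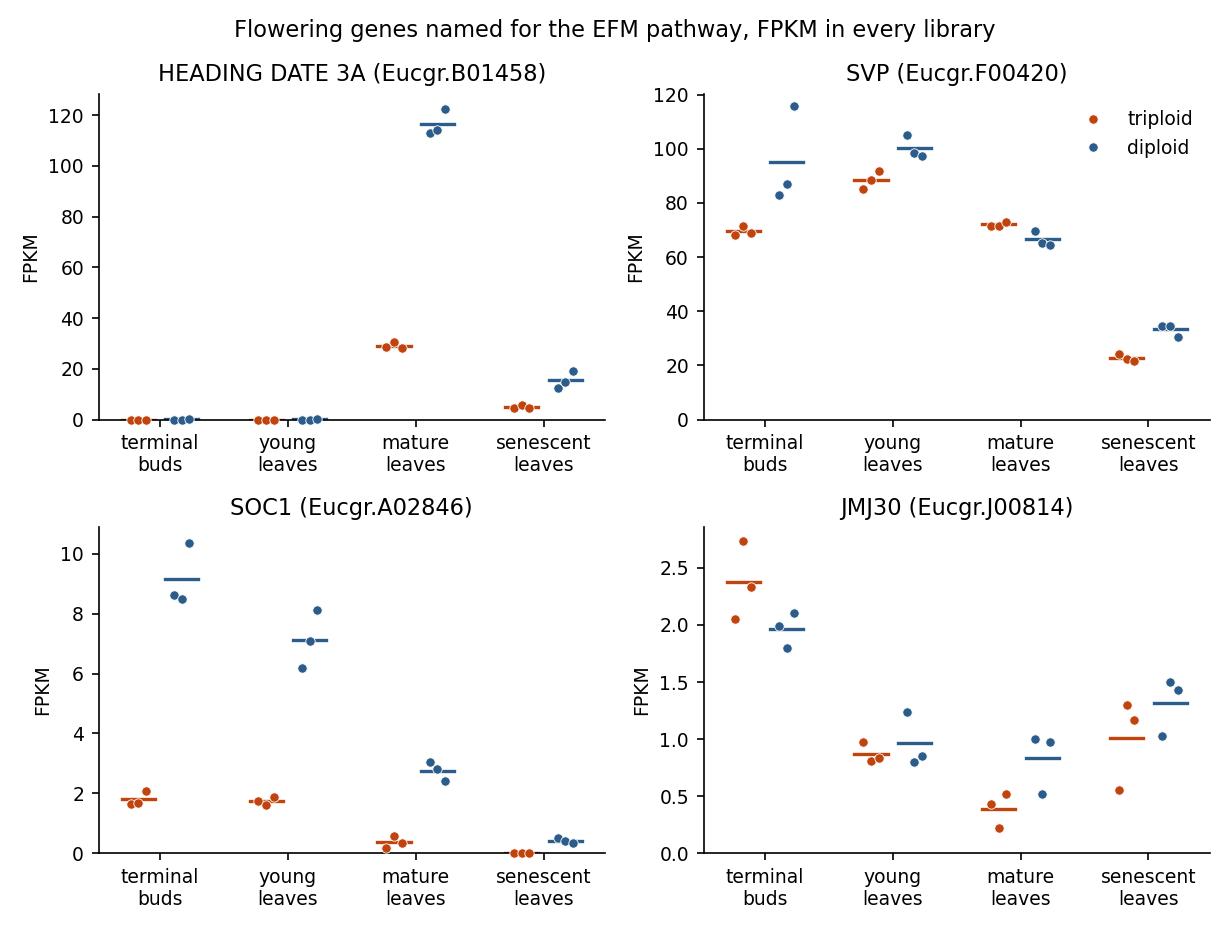
FPKM (vertical axis, linear and starting at 0) of the genes described as HEADING DATE 3A, SVP (the most abundant), SOC1 and JMJ30 in triploid (red, left) and diploid (blue, right) libraries at 4 stages. Points are single libraries and bars are group means. HEADING DATE 3A reaches 28.2 to 30.5 FPKM in triploid mature leaves and 113.1 to 122.4 FPKM in diploid ones.

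Of the 85 flowering genes tested, 6 were higher and 43 lower in triploid terminal buds (median -0.40). Over all genes tested 14% were higher and 34.9% lower (median -0.18). In young leaves 5 were higher and 21 lower (median -0.09), beside 11.4% and 11.9% of all genes (median 0.01). In mature leaves 40 were higher and 24 lower (median 0.28), beside 42.4% and 22.6% (median 0.20). The mature leaf counts do not stand out from those shares. In senescent leaves 44 were higher and 21 lower (median 0.36), beside 40.1% and 20% (median 0.17). After scaling these splits were 13 and 32, 4 and 20, 30 and 33, and 34 and 25. Over all 19174 genes they were 4152 and 4671, 2037 and 2437, 5771 and 6486, and 5633 and 5830. The groups of this list did not move together. Of 12 autonomous and vernalization pathway genes 11 were higher in triploid mature leaves and 10 in senescent leaves, and none was lower. Over all genes 42.4% and 40.1% were higher. Of 9 demethylase genes 8 were higher at each of these stages, with 1 lower in mature leaves. In terminal buds these 2 groups had 1 higher and 3 lower, and none and 2, and in young leaves no calls. Of 16 MADS-box genes tested 14 were lower and 1 higher in triploid terminal buds, where 34.9% of all genes were lower. In young leaves 10 were lower and 1 higher (11.9% of all genes lower), in mature leaves 11 and none (22.6%), and in senescent leaves 10 and 2 (20%). After scaling these were 13 and 1, 10 and 1, 14 and none, and 12 and none. The 7 genes with neighbouring identifiers described as AGL42 or SOC1-like were lower at every stage. Of the other 9, 7 were lower and 1 higher in terminal buds, 3 and 1 in young leaves, 4 and none in mature leaves, and 3 and 2 in senescent leaves (after scaling 6 and 1, 3 and 1, 7 and none, and 5 and none). The largest differences among the rest fell on 5 genes described as AGL42, a relative of SOC1. In young leaves Eucgr.K00202 was listed at 0 in all triploid libraries, against 20.5 ± 0.972 FPKM in the diploid. In senescent leaves Eucgr.K00192, Eucgr.K00204 and Eucgr.K00191 were listed at 0 in all triploid libraries, against 16.7 ± 3.42, 17.2 ± 1.92 and 3.35 ± 0.934 FPKM in the diploid. In mature leaves the same held for Eucgr.K00194, with 4.82 ± 0.586 FPKM in the diploid. The remaining gene was Eucgr.E03260, described as squamosa promoter-binding-like protein 3, of a family that promotes the adult phase and flowering. It had 4.97, 5.57 and 5.33 FPKM in triploid mature leaves, against 43.4, 42.7 and 49.4 FPKM in diploid ones, and was lower in the triploid by 2.88 (SE 0.16, adjusted p = 3.8e-12).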

How the data were processed

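RNA sequencing libraries were prepared from 4 leaf stages of triploid and diploid *E. urophylla*. The authors aligned reads to the *E. grandis* genome and deposited FPKM and read counts per gene for 26033 genes. The labels list HISAT2 2.0, StringTie 1.3.0 and Bowtie 0.12.2 and a mouse build, while the identifiers are those of *E. grandis*. They name poly(A) selection, and the methods name a total RNA kit and RPKM. Counts could be tied to 22 libraries (1 of diploid senescent leaves), and 2 columns of counts that matched no library were not used. FPKM of 0.0001 or less were set to 0.

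log2(FPKM + 1) values were fitted in limma 3.58.1 (variance trend, 8 group means). The 19174 genes averaging 0.5 FPKM or more were tested, and a call required an adjusted p (Benjamini-Hochberg) under 0.05. It took 13 comparisons: triploid against diploid at each stage, 3 stage steps in each ploidy, and the difference of each step between ploidies. Alternatives were a pseudocount of 0.1, no filter, median-ratio scaling over 11530 genes of at least 1 FPKM in every library, a replicate block, leaving out libraries, and, on counts, edgeR 4.0.16 (quasi-likelihood test, 22699 genes) and DESeq2 1.42.0 (23213 genes with at least 10 counts). The edgeR fit without the 3 high-deviation diploid libraries was added after the values were seen. The scripts were tested on simulated data. Libraries of a group differed by more than counting noise (the lowest mean chi-square of a pair was 17.6 a gene).

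Named genes were the 4 EFM-annotated genes; for each, the 3 genes of highest Pearson r of log2(FPKM + 1) and the most similar *EgrGLK* gene; every tested flowering gene described as FT or HEADING DATE 3A, SVP, JOINTLESS, SOC1 or JMJ30; and the 6 other flowering genes of largest ploidy difference among those called without overlap. Lists of flowering, meristem, photosynthesis, senescence and phloem genes came from descriptions. A list of other relatives of EFM (HRS1 and HHO) matched no gene of the table. Members and lists were chosen with earlier results of these data known. Software was R 4.3.3, matplotlib 3.10.9, pandas 2.3.3, numpy 2.4.6 and Python 3.11.15.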

Additional observations from a re-analysis of the deposited data

Results flagged for a closer look

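In 7 cases the change of an EFM-annotated gene from one stage to the next differed between the ploidies (limma interaction, triploid change minus diploid change). *EgrGLK29* from mature to senescent leaves (-1.40) passed the test under all 20 alternatives. *EgrGLK35* from young to mature leaves (-1.15) passed under 19 of them and from mature to senescent leaves (1.34) under 18, the exceptions being edgeR fits on the counts. *EgrGLK14* from terminal buds to young leaves (-0.75) passed under 18 and not in the 2 fits without the 3 high-deviation diploid libraries. *EgrGLK14* from young to mature leaves (-0.56) passed under 11, *EgrGLK27* from terminal buds to young leaves (-0.80) under 9 and *EgrGLK27* from young to mature leaves (0.71) under 5. The cause of these differences was not tested.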

How the results depend on the processing

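The differences of *EgrGLK14* in terminal buds, *EgrGLK35* in mature leaves and *EgrGLK29* in senescent leaves kept their sign and their call under all 14 alternatives, as did 6 stage steps of *EgrGLK35* and *EgrGLK29* named in the report as rises at maturity or senescence or as rises of *EgrGLK35* in young leaves. Other counts moved. Of the 4 genes, 4 were called in terminal buds with DESeq2 (2 in the report), 1 in young leaves with no filter, after scaling or without the 3 high-deviation libraries and 0 with edgeR without them (2 at an unadjusted p under 0.05, 2 with edgeR or DESeq2 on all counts and 2 in the report), 2 in mature leaves after scaling, with DESeq2 or without these libraries (1 in the report), and 1 in senescent leaves with DESeq2 or either edgeR fit (2 in the report). Of the differences between ploidies in a step, 1 was called from terminal buds to young leaves with a pseudocount of 0.1, with no filter or without these libraries by limma or edgeR (2 in the report), and 1 from mature to senescent leaves with either edgeR fit (2 in the report).

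Signs turned mainly where a difference was small. After scaling, with edgeR, with DESeq2 and with edgeR without the 3 libraries, *EgrGLK29* in mature leaves (triploid minus diploid) was -0.18, -0.15, -0.25 and -0.15, *EgrGLK35* in senescent leaves -0.19, -0.32, -0.25 and -0.31, and *EgrGLK29* in mature relative to young diploid leaves 0.41, 0.43, 0.52 and 0.41. In triploid young leaves relative to terminal buds *EgrGLK27* was -0.12, -0.041, -0.14 and -0.042 and *EgrGLK29* -0.12, -0.051, -0.15 and -0.052, and the step difference of *EgrGLK29* there -0.090, -0.07, -0.13 and -0.22, and -0.064 with limma without the 3 libraries. *EgrGLK27* in mature leaves was -0.011 with DESeq2, and 0.066 in mature relative to young diploid leaves with edgeR without the 3 libraries. *EgrGLK29* in diploid young leaves relative to terminal buds was -0.026 after scaling and -0.025 with DESeq2. *EgrGLK35* in senescent relative to mature triploid leaves was -0.0039 after scaling, and the step difference of *EgrGLK14* at senescence was -0.15 with both edgeR fits.

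When 1 library was left out, 1 to 3 of the 4 genes were called in terminal buds and 1 to 2 in young leaves, 1 to 2 in mature relative to triploid young leaves, and 1 to 2 and 1 to 3 in the first and second step differences. Signs turned for *EgrGLK14* in senescent leaves (-0.13 to 0.13), *EgrGLK35* in senescent leaves (-0.039 to 0.20) and in senescent relative to mature triploid leaves (-0.11 to 0.13), and the step differences of *EgrGLK29* in young leaves (-0.046 to 0.19) and *EgrGLK14* at senescence (-0.013 to 0.25). In these cases the cause was not tested. Replicate numbers did not pair the libraries. Correlations of same-numbered libraries were -0.204 to 0.103 across ploidies (12 pairs, 5 best with their own number) and -0.312 to 0.317 across neighbouring stages (18 pairs, 9 best). A replicate block changed no call, with 2, 2, 1 and 2 of the 4 genes called at the 4 stages. *EgrGLK27* held the largest share in 6 groups, and in 7 when *EgrGLK35* was left out of the sum or, among omissions of 1 library (chosen after seeing the data), without diploid mature leaf library 1, and 14 of 56 recomputed shares moved by more than 1 SD. Depth limits *EgrGLK35* in terminal buds, and the count fits rest on 1 diploid senescent library.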
